A study of Mus musculus with 26 samples.

Results

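Mouse epiblast stem cells (EpiSCs) kept in AF medium were compared with EpiSCs kept in AFX medium by ATAC-seq, which marks accessible DNA by letting Tn5 transposase cut into open chromatin. The 9 libraries were chosen by their labels from the 18 libraries of the first set and from 26 in the whole series. EpiSC_AF held 3 libraries of EpiSCs in AF at passage 22. EpiSC_AFX joined 2 cultures with 3 libraries each: EpiSC_AFX1 in AFX at passage 14 and EpiSC_AFX2, whose titles read E33, in AFX at passage 16. No strain, genotype or age was given for any of these cells, and each library started from 50000 cells. AF was represented by 1 culture, so medium, cell line and passage cannot be told apart. The labels number the libraries of a culture without saying whether they came from separate dishes, so each p measures only the spread between these libraries.

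EpiSCs are pluripotent cells of the primed kind, derived from the epiblast after implantation and held by activin and fibroblast growth factor signals. Canonical Wnt signals pass through Frizzled receptors and LRP co-receptors to stabilise beta-catenin, which joins TCF/LEF factors on DNA. In EpiSC cultures this pathway is known for driving a share of the cells toward primitive streak, mesoderm and endoderm fates. The labels give AF and AFX as letters only. In published media for these cells, A stands for activin A, F for FGF2 and X for XAV939, a tankyrase inhibitor that stabilises Axin and so holds beta-catenin low. The comparison thus asked where open chromatin differed with X, in particular near lineage and Wnt pathway genes.

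The 9 deposited lists held 209653 peaks, between 15505 and 29575 per library. The depth of sequencing was unknown, because peak lists carry no read counts, and no counting interval could be given. To make the lists comparable, only the strongest peaks by the authors' −log10 p were kept, as many from each list as the shortest list of the first set holds. This equal length left 72396 peaks in all, or between 27.2% and 51.9% of a list. Merging the kept peaks gave 15559 union regions, of which 3619 (23.3%) had a peak in all 9 lists and 4084 (26.2%) in a single list. EpiSC identity was read from peaks within 1 kb of a gene end in the lists as deposited. Pou5f1 and Sox2 (core pluripotency factors), Fgf5 and Dnmt3b (genes of the primed epiblast), Utf1 and Nodal had such a peak in 3 of 3 EpiSC_AF and 6 of 6 EpiSC_AFX lists. Sall4, a pluripotency factor, had one in 3 of 3 and 5 of 6. Otx2, a factor of the primed epiblast, had none in any of the 9 lists and 2 to 3 peaks within 50 kb in each. Of the naive markers, Dppa3 had none in any list. Zfp42 had one in 1 EpiSC_AF list and Esrrb in 1 EpiSC_AFX list, while Klf2, Klf4 and Tbx3 had one in all 9. Within 50 kb, Dppa3 had 0 peaks in the EpiSC_AF lists and 1 to 3 in the EpiSC_AFX lists. Esrrb had 2 to 3 and 3 to 8. At equal length, feeder fibroblast markers had a peak at 0 of 8 genes in each EpiSC_AF list and at 0 or 1 in the EpiSC_AFX lists, and trophoblast markers at 0 or 1 of 7 genes in every list. As deposited, feeder markers had one at 2 to 3 genes in EpiSC_AF and 2 to 5 in EpiSC_AFX. Trophoblast markers then had one at 1 or 2 genes in every list. Endoderm genes, also read for other cells, had one at 4 to 7 of 12 genes in EpiSC_AF and 3 to 7 in EpiSC_AFX as deposited. At equal length the endoderm counts were 0 to 2 and 1 to 2.

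Few open regions parted the media, and none of them lay near a listed Wnt or lineage gene. Of the 15559 union regions, 44 (0.283%) were held by all 3 EpiSC_AF lists and by none of the 6 EpiSC_AFX lists. Another 18 (0.116%) were held by all 6 EpiSC_AFX lists and by no EpiSC_AF list. No gene of the Wnt lists (99 genes) or of the lineage and pluripotency lists (124 genes) lay within 50 kb of any of these 62 regions. Of all 21900 protein-coding genes, 86 lay within 50 kb of an EpiSC_AF region and 64 within 50 kb of an EpiSC_AFX region. At that low share few listed genes could be near, so 0 does not set them apart from other genes. The nearest were Krt18 and Krt8, keratins of simple epithelia and early ectoderm, at 68.3 kb and 96.0 kb from an EpiSC_AF region in Tns2. Ror2, a receptor for non-canonical Wnt ligands, lay 128 kb from an EpiSC_AF region at Nfil3, and Lrp6, a Wnt co-receptor, lay 362 kb from one at Cdkn1b.

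Presence chose these regions, so their presence is a description and was not tested on them. Just outside the rule, 75 regions were held by 3 EpiSC_AF lists and 1 EpiSC_AFX list, and 190 by 2 EpiSC_AF lists and no EpiSC_AFX list. In the other direction, 66 were held by 5 EpiSC_AFX lists and no EpiSC_AF list, and 71 by 6 EpiSC_AFX lists and 1 EpiSC_AF list. Over all 15559 regions, Fisher's exact test of presence (two-sided, 3 against 6 lists, Benjamini-Hochberg adjustment) called 0 regions, and the smallest adjusted p was 1. The smallest p that 3 against 6 lists allow is 0.0119, so that over this many regions an adjusted call was nearly out of reach by design. Without adjustment, 119 regions passed 0.05 with presence more often in EpiSC_AF (0.765%) and 84 more often in EpiSC_AFX (0.540%).

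The regions that parted the media also held some gene starts, and the bases before those starts are shown because a promoter is where a TCF/LEF or lineage factor motif can be set beside a named gene. A region reached the start site of 11 genes for EpiSC_AF (12 start sites) and of 10 genes for EpiSC_AFX (12 start sites), with sequences from RefSeq on GRCm38.p6, the assembly also called mm10. Each stretch below is the part of the promoter inside the open region, at most 150 bases, read 5′ to 3′ on the gene's strand toward the start. They were picked after the values were seen, as the 2 stretches of at least 100 bases with the highest mean percentile rank in each direction and each stretch with a TCF/LEF motif. Shld1 ranked above Prokr2 but had only 82 bases before its start inside the region. Capitals mark a motif match. The first 3 lay in regions held by EpiSC_AF only at equal length. As deposited, the Fam168a and Poc1b regions had a peak in 6 of 6 EpiSC_AFX lists, and the Prokr2 region in 5 of 6. The stretches stand at chr7:100706485-100706634 (plus strand) before Fam168a, chr2:132385448-132385551 (minus strand) before Prokr2, a prokineticin receptor, and chr10:99106932-99107081 (plus strand) before Poc1b, a centriole protein.
Fam168a: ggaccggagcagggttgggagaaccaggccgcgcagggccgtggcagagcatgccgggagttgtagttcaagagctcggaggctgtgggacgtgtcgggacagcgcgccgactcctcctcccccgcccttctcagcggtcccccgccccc
Prokr2: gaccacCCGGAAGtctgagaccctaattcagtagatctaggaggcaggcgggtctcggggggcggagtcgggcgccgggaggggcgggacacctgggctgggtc
Poc1b: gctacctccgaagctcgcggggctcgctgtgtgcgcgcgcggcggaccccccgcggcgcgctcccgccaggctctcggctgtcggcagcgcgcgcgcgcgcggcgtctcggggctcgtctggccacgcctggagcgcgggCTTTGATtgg
The next 3 lay in regions held by EpiSC_AFX only at equal length. As deposited, the L3mbtl2 and Hspb6 regions had a peak in 3 of 3 EpiSC_AF lists, and the Bmpr1b region in 2 of 3. These stretches stand at chr15:81663739-81663888 (plus strand) before L3mbtl2, chr3:141931589-141931738 (minus strand) before Bmpr1b, and chr7:30552390-30552539 (plus strand) before Hspb6, a small heat shock protein.
L3mbtl2: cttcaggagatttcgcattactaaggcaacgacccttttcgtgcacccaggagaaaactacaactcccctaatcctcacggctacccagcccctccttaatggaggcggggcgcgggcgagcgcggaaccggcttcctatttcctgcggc
Bmpr1b: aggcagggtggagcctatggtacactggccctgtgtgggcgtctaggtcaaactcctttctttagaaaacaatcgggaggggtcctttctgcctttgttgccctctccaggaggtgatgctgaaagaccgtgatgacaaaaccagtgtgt
Hspb6: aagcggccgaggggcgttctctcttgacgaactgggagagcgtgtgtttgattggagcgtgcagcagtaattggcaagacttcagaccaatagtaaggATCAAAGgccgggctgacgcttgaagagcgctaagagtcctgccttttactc

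The TCF/LEF motif searched was CTTTGAT on both strands, in the window from 250 bases before to 50 after each start. It was found at 1 of 12 start sites in EpiSC_AF regions, that of Poc1b, and at 3 of 12 in EpiSC_AFX regions, all in the shared region of Proser3 and Hspb6, where the Hspb6 strand reads the reverse complement ATCAAAG. The same run of letters lies in the overlapping windows of all 3 start sites, so they are not separate matches. Of all 21263 protein-coding start sites in the table, 3.22% held the motif. The ETS motif CCGGAAG, present before Prokr2, was found at 5 of 12 start sites in EpiSC_AF regions and 4 of 12 in EpiSC_AFX regions, against 11.6% of all. The motifs ATGCAAAT for octamer POU factors, AACAATGG for SOX, AGATAAG for GATA factors, AGGTGTGA for T-box factors, TGTTTAC for FOXA and TGANTCA for AP-1 were found at none of these 24 start sites, against 1.66%, 0.837%, 2.64%, 1.15%, 3.01% and 6.99% of all. ZIC (CAGCAGG) was found at 1 start site in each direction, against 10.5% of all. TEAD (GGAATG), NRF1 (GCGCATGC), the CTCF core (AGGGGGCGC) and the E-box (CACGTG) were found at none in EpiSC_AF regions and at 1, 1, 1 and 2 in EpiSC_AFX regions, against 13.6%, 3.52%, 1.70% and 7.84% of all. A match is a run of letters and not a bound site. All 24 start sites lie in an open region, while the start sites of the whole table were taken whether open or not. Start sites in other open regions were not searched. These shares and the GC content below thus do not set the regions apart from other open promoters. The median GC content of the windows was 65.8% for EpiSC_AF and 55.3% for EpiSC_AFX, against 56.3% over all start sites.

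The 44 EpiSC_AF regions were mostly peaks of middle or low rank. A percentile rank of 100 here means the strongest kept peak of a library and 0 the weakest. The mean percentile of the 44 regions ran from 11.1 to 50.3, with a median of 31.3. Of the 44, 28 lay within the span of a protein-coding gene, 15 (34.1%) within 1 kb of a gene end, and 10 had no gene within 50 kb, against 51.6% of all union regions within 1 kb of a gene end. In all, 86 genes lay within 50 kb of one of them.

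The strongest EpiSC_AF region by mean rank lay in Cabyr, a calcium-binding protein of the sperm tail, at chr18:12741142-12741449. Its percentile ranks in the EpiSC_AF libraries were 35.8, 48.8 and 66.4. It was the only one of the 44 with no peak in any EpiSC_AFX list at any depth of the deposited lists. It was also absent from both Rd2_AFX lists, a later pair of EpiSC libraries in AFX, and present in 3 of 3 FS1, 3 of 3 FS2 and 3 of 3 ES lists.

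A region 3.03 kb from Cdkn1b, which encodes the cell cycle inhibitor p27, lay at chr6:134928552-134928869 and ranked at 69.7, 60.7 and 12.1 in EpiSC_AF. The region in Tns2, a focal adhesion protein, lay at chr15:102100299-102100820 and ranked at 61.3, 48.2 and 29.5. The region at the end of Rnf20, an E3 ligase for histone H2B, lay at chr4:49631631-49632226 and ranked at 39.8, 54.2 and 41.9. All 3 had a peak lower down in all 6 EpiSC_AFX lists as deposited, beyond the equal length.

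A region in Osr2, an odd-skipped transcription factor of limb and kidney development, lay at chr15:35295868-35296177 and ranked at 86.4, 17.3 and 24.4. A region in Rcor1, the CoREST corepressor, lay at chr12:111064677-111064981 and ranked at 80.2, 14.7 and 30.9. In both, replicate 1 stood far above the other EpiSC_AF libraries, so the mean rank rests on that library. The Rcor1 region was found in 1 of 3 EpiSC_AFX2 lists as deposited and in all 3 of EpiSC_AFX1.

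A region in Fam168a lay at chr7:100706193-100706925 and ranked at 59.8, 44.0 and 21.2. A region in Prdm9, the histone methyltransferase that places meiotic recombination sites, lay at chr17:15544088-15544914 and ranked at 5.38, 51.3 and 66.8. A region 46.2 kb from Mrps6, a mitochondrial ribosomal protein, lay at chr16:92158447-92158797 and ranked at 36.7, 12.9 and 72.5. The spread between the 3 libraries of a single culture was thus wide in most of these regions. A region at Shld1, a shieldin subunit of DNA break repair, lay at chr2:132686849-132687149 and was more even, at 46.1, 31.3 and 41.2.

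A region 2.42 kb from Hes1, a Notch target and transcriptional repressor, lay at chr16:30070214-30070663 and was close to the threshold, at 22.5, 11.3 and 2.55. A region in Nfil3, a bZIP factor, ranked at 13.8, 35.1 and 16.1. These last 2 regions, like Prokr2 and Poc1b above, are outside the 10 with the highest mean rank and were picked after their values were seen. The Hes1 region was found in all 6 EpiSC_AFX lists as deposited and in no FS2 or ES list.

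The 18 EpiSC_AFX regions had mean percentile ranks from 21.4 to 56.8, with a median of 43.1. Of the 18, 15 lay within a gene span, 9 (50%) within 1 kb of a gene end, and 1 had no gene within 50 kb. In all, 64 genes lay within 50 kb of one of them. None of the 18 was absent from all 3 EpiSC_AF lists as deposited, and 13 were in all 3.

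The strongest lay in Agps, an enzyme of ether lipid synthesis, at chr2:75873956-75874399. It ranked at 90.4, 58.1 and 67.5 in EpiSC_AFX1 and at 34.0, 39.3 and 51.5 in EpiSC_AFX2. In the EpiSC_AF lists as deposited the same region stood at ranks 11565, 8133 and 9848, so replicate 2 missed the equal length by a small margin. The 2 AFX cultures did not overlap at this region.

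A region in Bmpr1b, a type I receptor for bone morphogenetic proteins, lay at chr3:141931390-141931821. It ranked at 57.8, 52.7 and 47.5 in EpiSC_AFX1 and at 34.6, 71.8 and 38.1 in EpiSC_AFX2. It was missing from EpiSC_AF replicate 1 as deposited and stood at ranks 14316 and 11476 in replicates 2 and 3. It was found in both Rd2_AFX lists and in no ES list.

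A region at L3mbtl2, a Polycomb-group protein that binds histones, lay at chr15:81663701-81664060 with Ep300, a histone acetyltransferase, within 50 kb. It ranked at 53.1, 73.0 and 82.3 in EpiSC_AFX1 and at 6.74, 66.9 and 43.2 in EpiSC_AFX2, and at 8222, 11619 and 8087 in the deposited EpiSC_AF lists. A region at Terf1, a telomere repeat binding protein, lay at chr1:15804862-15805798 and ranked between 32.5 and 59.2 in all 6 libraries. The Terf1 region also had a peak in all 3 EpiSC_AF lists as deposited, at ranks 8376, 12506 and 10160, all weaker than its ranks of 3279 to 5428 in the EpiSC_AFX lists.

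A region at Erich3 lay at chr3:154663902-154664449 and ranked from 28.0 to 74.4 in the 6 EpiSC_AFX libraries. Regions at Proser3 (chr7:30552253-30553025, with Kmt2b, a histone methyltransferase, within 50 kb), Zc2hc1c (chr12:85279840-85280624) and Vinac1 (chr2:129056688-129057018) had mean percentile ranks of 44.5, 43.3 and 43.0. Regions 125 kb from Bub3, a spindle checkpoint protein (chr7:131696953-131697234), and 17.3 kb from Dnajb12, a chaperone (chr10:59916583-59916917), had 46.1 and 44.4. Bub3's region was missing from EpiSC_AF replicates 1 and 2 as deposited and stood at rank 18712 in replicate 3.

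**Figure D1:**
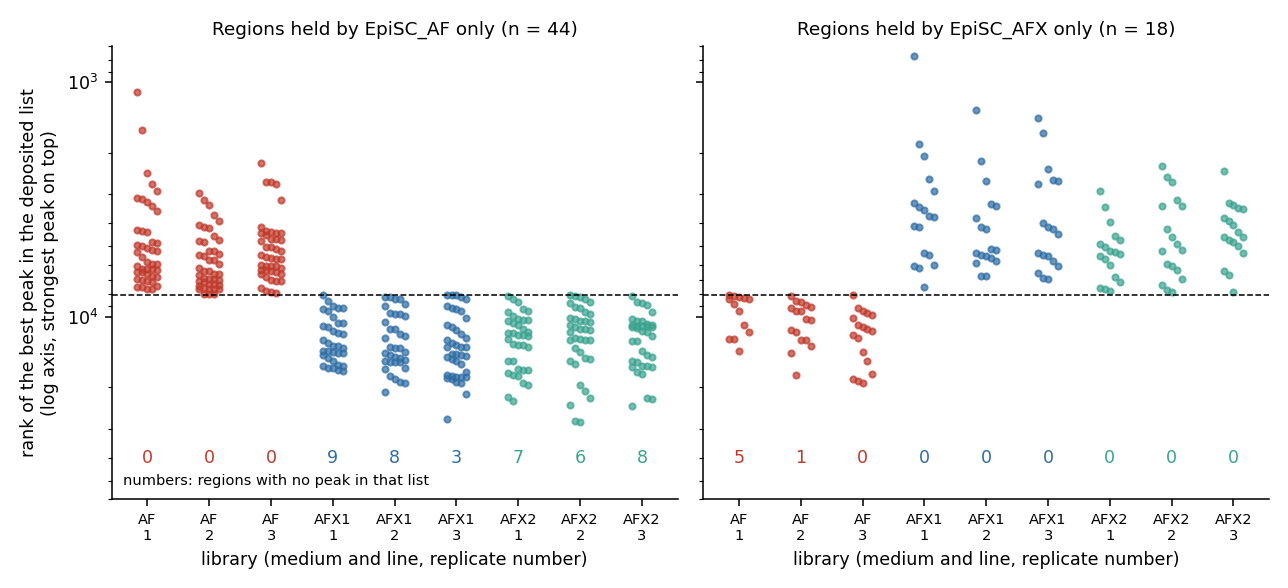
Each point is a region held by one medium only (left, 44 of EpiSC_AF; right, 18 of EpiSC_AFX), placed at the rank of its best peak in each of the 9 deposited lists on a log axis with the strongest on top. The dashed line is the equal list length, and the numbers count regions with no peak in that list; most regions of a medium have a peak below the line in the lists of the other.

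The plot of ranks in the deposited lists shows that few of these regions lacked a peak in every list of the other medium. Of the 44 EpiSC_AF regions, 25 had a peak in all 6 EpiSC_AFX lists as deposited, 30 in all 3 of EpiSC_AFX1 and 33 in all 3 of EpiSC_AFX2. Against a single line the rule gave more regions. Between EpiSC_AF and EpiSC_AFX1, 265 regions were held by EpiSC_AF only and 208 by EpiSC_AFX1 only, of 14175 union regions. Between EpiSC_AF and EpiSC_AFX2 the counts were 171 and 177 of 13412. The 2 lines in the same medium parted as much, with 259 regions for EpiSC_AFX1 only and 337 for EpiSC_AFX2 only, of 14030.

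Overlap in base pairs gave the same order. The mean Jaccard index, which is the shared length divided by the joint length, was 0.515 ± 0.0131 (SD over 9 library pairs) between EpiSC_AF and EpiSC_AFX2. It was 0.475 ± 0.0137 between EpiSC_AF and EpiSC_AFX1 and 0.472 ± 0.0194 between EpiSC_AFX1 and EpiSC_AFX2 (SD over 9 pairs each). Within a culture it was 0.532 for EpiSC_AF, 0.502 for EpiSC_AFX1 and 0.554 for EpiSC_AFX2. EpiSC_AF was thus nearer to EpiSC_AFX2 than the 2 AFX cultures were to each other. These indices describe the libraries and were not tested, since 1 culture stands for AF.

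The chromosomes also set the cultures apart. Chromosome 3 held 5.37% to 5.46% of the kept peaks in EpiSC_AFX1, against 4.31% to 4.56% in EpiSC_AF and 4.54% to 5.00% in EpiSC_AFX2. Chromosome Y held 0.062% to 0.087% in EpiSC_AFX2, against 0.261% to 0.323% in EpiSC_AF and 0.236% to 0.286% in EpiSC_AFX1. The part of these differences in the region counts was not tested.

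Other libraries that took no part in choosing the regions were then read, in the lists as deposited. The 2 Rd2_AFX libraries, EpiSCs in AFX at passage 16 from the other set of the series, both held 14 of the 18 EpiSC_AFX regions (77.8%), and 6 of the 44 EpiSC_AF regions (13.6%). Other regions found in as many of the 9 lists, but outside the rule, are set beside them. Both Rd2_AFX lists held 48.4% of the 917 other regions found in 6 of 9 lists and 31.2% of the 1319 other regions found in 3 of 9. Neither Rd2_AFX list held 28 of the 44 EpiSC_AF regions (63.6%), against 38.8% of the others. The 2 Rd2_AFX libraries were alike, with 22.7% and 27.3% of the EpiSC_AF regions and 83.3% and 88.9% of the EpiSC_AFX regions. The other regions in 3 of 9 lists each had a peak in at least 1 EpiSC_AFX list, and 424 of them in 3 EpiSC_AFX lists and no EpiSC_AF list. Those in 6 of 9 each had a peak in at least 1 EpiSC_AF list. They are thus no neutral level, and part of the contrast in Rd2_AFX follows from how the regions were chosen. These shares are a description over 2 libraries of 1 culture, and were not tested.

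Formative stem (FS) cells were grown in A3XR, a medium with X in its name. At full depth, all 3 FS1 lists (passage 21) held 81.8% of the EpiSC_AF regions and 100% of the EpiSC_AFX regions, against 82.5% and 94.1% of the other regions found in 3 and 6 lists. At equal length, all 3 FS1 lists held 2 of the 44 EpiSC_AF regions (4.55%, against 8.42%) and 11 of the 18 EpiSC_AFX regions (61.1%, against 30.8%). All 3 FS2 lists (passage 29) held 29.5% of the EpiSC_AF regions (against 25.6%) and 55.6% of the EpiSC_AFX regions (against 45.3%) at full depth. At equal length FS2 held 5 of the 44 EpiSC_AF regions (11.4%, against 10.0%) and 6 of the 18 EpiSC_AFX regions (against 24.2%). Of all union regions, all 3 FS1 lists held 79.7% at full depth and 33.6% at equal length. All 3 FS2 lists held 40.2% and 24.0% of them. Set beside those other regions, embryonic stem (ES) cells in 2iL at passage 16 went the other way. All 3 ES lists held 9 EpiSC_AF regions (20.5%, against 7.35%) and 0 EpiSC_AFX regions (against 19.0%). They held 22.4% of all union regions, so the EpiSC_AF share was near the share over all regions. The 3 ES libraries differed, with 20, 13 and 13 of the EpiSC_AF regions and 6, 2 and 6 of the EpiSC_AFX regions. The 9 include Cabyr, Rnf20, Rcor1, Fam168a and Prdm9. Epiblast-like cells (EpiLC), made from ES cells over 2 days, held 5 and 2 regions in all 4 lists (11.4% and 11.1%, against 17.1% and 32.3%), while single EpiLC libraries held from 11.4% to 61.4% of the EpiSC_AF and from 22.2% to 94.4% of the EpiSC_AFX regions.

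**Figure D2:**
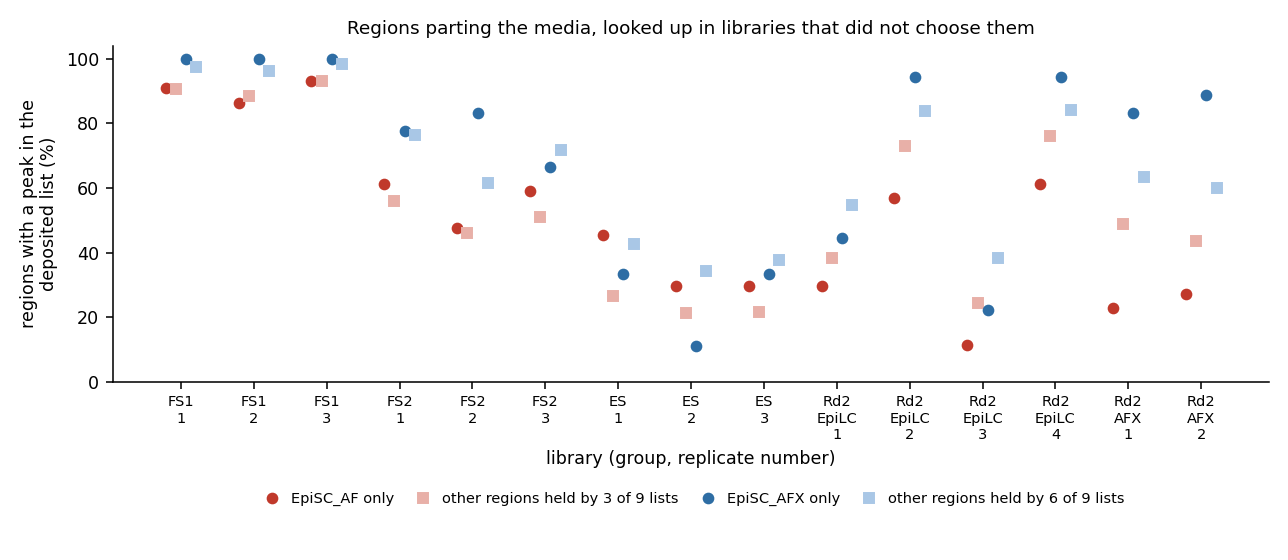
The percent of regions with a peak in the deposited list of each library outside the comparison, for EpiSC_AF-only regions (red circles, 44), EpiSC_AFX-only regions (blue circles, 18) and other regions found in as many of the 9 lists (pale squares). In the 2 Rd2_AFX lists the blue circles stand at 83.3% and 88.9% and the red ones at 22.7% and 27.3%.

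Whole libraries were compared on 5 values at equal list length, each tested by an exact two-sided permutation test over the 84 ways to pick 3 of 9 libraries, with adjustment over the 5. Only the overlap with ES regions had no value in common between the groups. Of 3587 regions held by all 3 ES lists, the EpiSC_AF libraries overlapped 77.6%, 77.4% and 76.3%. EpiSC_AFX1 overlapped 74.4%, 74.0% and 75.5%, and EpiSC_AFX2 73.5%, 72.8% and 74.0%. The EpiSC_AF libraries were the 3 highest of the 9. The difference of 3.06 percentage points (77.1 ± 0.73% against 74.0 ± 0.90%, SD, n = 3 and 6) had the smallest p the design allows, exact p = 0.0119, and did not pass after adjustment (adjusted p = 0.0595). A single value at that smallest p cannot pass adjustment over 5 values. Without EpiSC_AFX2 replicate 2 the difference shrank to 2.81 and its exact permutation p rose to 0.0179. It passed then (adjusted p = 0.0298) only because 3 of the 5 values shared that p, so the pass is no stronger evidence. The difference turned to −0.12 when every peak with −log10 q from 5 upward was taken.

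The other 4 values did not pass either. Of 7436 regions held by both Rd2_AFX lists, EpiSC_AF overlapped 67.4 ± 0.34% and EpiSC_AFX 68.5 ± 0.82%, a difference of −1.16 points (SD, n = 3 and 6, exact permutation p = 0.0595, adjusted p = 0.149). Without EpiSC_AFX2 replicate 2 it was −1.35 points, past the threshold (exact permutation, adjusted p = 0.0298). Of 2873 regions held by all 6 FS lists, EpiSC_AF overlapped 93.3 ± 0.88% and EpiSC_AFX 93.5 ± 0.91% (SD, n = 3 and 6, exact permutation p = 0.833, adjusted p = 0.833). The median peak width was 342 ± 18.5 bp and 362 ± 25.8 bp (SD, n = 3 and 6, exact permutation p = 0.310, adjusted p = 0.516).

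Distal peaks, over 50 kb from every gene span, made up 5.87 ± 0.22% of the peaks in EpiSC_AF and 5.47 ± 0.77% in EpiSC_AFX (SD, n = 3 and 6, exact permutation p = 0.452, adjusted p = 0.565). EpiSC_AFX2 replicate 2 stood apart at 6.97%, with the other 5 EpiSC_AFX libraries between 4.94% and 5.54%. Without it the difference was 0.71 points and passed (exact permutation, adjusted p = 0.0298).

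**Figure D3:**
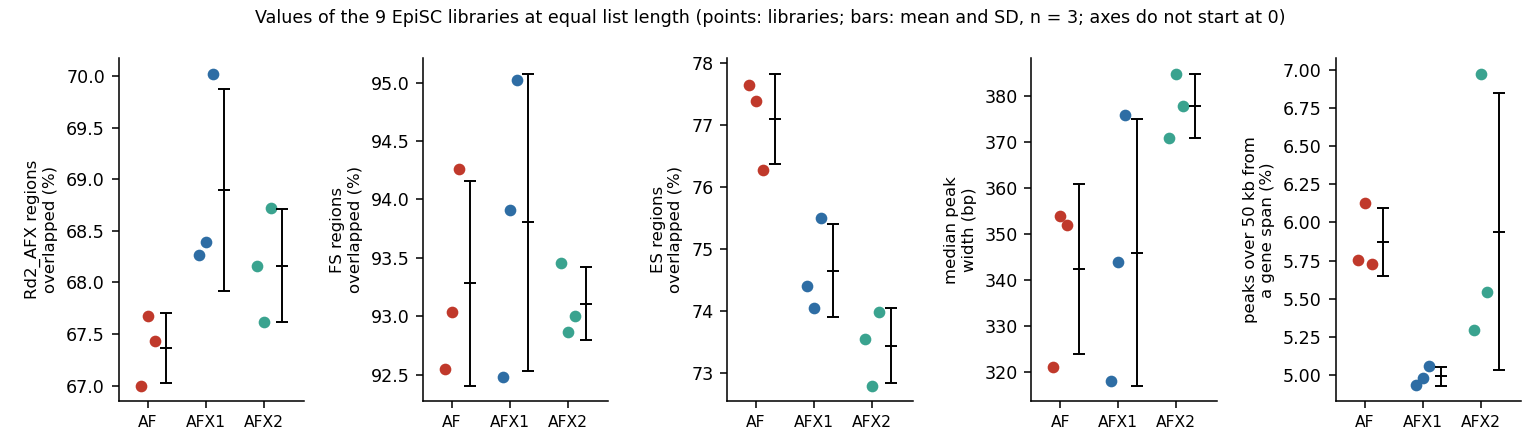
The 5 library values at equal list length, by culture (points, libraries; bars, mean and SD, n = 3; the vertical axes do not start at 0). EpiSC_AF lies above both AFX cultures in ES regions overlapped, at 76.3% to 77.6% against 72.8% to 75.5%, and the cultures overlap in the FS panel.

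Peaks were then counted within the span of each gene and 50 kb on each side. Of 16260 protein-coding genes with a peak in any list, 148 (0.910%) had more peaks in EpiSC_AF and 133 (0.818%) more in EpiSC_AFX at an unadjusted exact permutation p under 0.05. None passed after adjustment (smallest adjusted p = 1), which the design makes nearly unreachable here too, and the median difference over all genes was 0 peaks. In 56 genes at 25 loci (0.344%) every EpiSC_AF library lay above every EpiSC_AFX library, and in 41 genes at 23 loci (0.252%) every one lay below. Of 8964 genes whose start or end lay within 1 kb of a peak, 13 (0.145%) had one in all EpiSC_AF and no EpiSC_AFX libraries, among them Cabyr, Fam168a, Prokr2, Rnf20 and Shld1. Another 10 (0.112%) had one in all EpiSC_AFX and no EpiSC_AF libraries, among them Erich3, Hspb6, L3mbtl2, Proser3 and Terf1. No listed gene was among either.

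The largest differences toward EpiSC_AF among the non-overlapping genes were at Gm40363, Calcoco1 (an autophagy receptor), Eif4b (a translation initiation factor) and the neighbours Ankle1 and Babam1, which act in DNA repair. Ushbp1 and Tns2 tied with Ankle1 and Babam1 at a difference of 2.5 peaks. Calcoco1 had 5, 5 and 6 peaks in EpiSC_AF, 2, 3 and 4 in EpiSC_AFX1 and 2, 2 and 2 in EpiSC_AFX2. Eif4b, which neighbours Tns2, had 6, 3 and 4 peaks in EpiSC_AF, against 2, 2 and 1 and then 2, 1 and 2. Both differences, of 2.83 and 2.67 peaks, had exact permutation p = 0.0119 and adjusted p = 1. As deposited they were 1.17 at Calcoco1 and 1.33 at Eif4b, and −0.33 at Ankle1 and −0.50 at Babam1 (exact permutation p = 0.286, 0.226, 0.702 and 0.643).

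Toward EpiSC_AFX the largest were at Zbtb32, Grifin, the neighbours Lfng and Ttyh3, and Rab37, with which Tmem104 tied at −2 peaks. Lfng encodes Lunatic fringe, a glycosyltransferase that tunes Notch receptors. It had 2, 2 and 2 peaks in EpiSC_AF, 4, 5 and 4 in EpiSC_AFX1 and 5, 3 and 5 in EpiSC_AFX2. Zbtb32 had 3, 3 and 4, against 6, 6 and 6 and then 5, 7 and 5 (exact permutation p = 0.0119, adjusted p = 1 for both).

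Genes of the Wnt pathway had about equal numbers of peaks in the media. Of the 99 listed, 88 had a peak, 0 had an unadjusted exact permutation p under 0.05, and the median difference was 0 peaks, as over all genes. Of all genes, 0.910% had such a p toward EpiSC_AF and 0.818% toward EpiSC_AFX. At shares this low, 0 of 88 does not set the Wnt genes apart. EpiSC_AF had the higher mean in 32, EpiSC_AFX in 37, and 19 were equal. Wnt3, the ligand that starts the primitive streak, had 1, 2 and 1 peaks in EpiSC_AF, 3, 2 and 2 in EpiSC_AFX1 and 2, 1 and 2 in EpiSC_AFX2 (exact permutation p = 0.310). Wnt4, a ligand of kidney and gonad, had 0, 1 and 1 in EpiSC_AF and 0 in all 6 EpiSC_AFX libraries (exact permutation p = 0.0833). Wnt3a had 1, 2 and 1, against 0, 1 and 0 and then 1, 0 and 1 (exact permutation p = 0.131).

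Among receptors, Fzd10 had 1, 2 and 1 peaks in EpiSC_AF, 0 in every EpiSC_AFX1 library and 1, 0 and 1 in EpiSC_AFX2 (exact permutation p = 0.119). Fzd5 had 2 peaks and Fzd4 1 peak in every library. Among antagonists, Sfrp1, a secreted Frizzled-like decoy, had 0 in every EpiSC_AF library, 1, 1 and 1 in EpiSC_AFX1 and 1, 0 and 2 in EpiSC_AFX2 (exact permutation p = 0.119). All these groups overlapped.

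Within the cell, Axin1, a scaffold of the complex that destroys beta-catenin, had 3, 2 and 2 peaks in EpiSC_AF and 3 in every EpiSC_AFX library (exact permutation p = 0.0833). Axin2, a scaffold that is itself a Wnt target, had 1, 3 and 2, against 1, 1 and 1 and then 2, 1 and 1 (exact permutation p = 0.155). Gsk3b, the kinase that marks beta-catenin for destruction, had 1 peak in every library. Tnks and Tnks2, the tankyrases, had 2, 1 and 2 and 0, 1 and 2 peaks in EpiSC_AF, and 1 or 2 and 0 to 2 in EpiSC_AFX. In the nucleus, Tcf7l1, a TCF factor that mostly represses, had 3, 3 and 3, against 2, 2 and 3 and then 3, 1 and 2 (exact permutation p = 0.155), while Tcf7l2 had 1 peak in every library and Lef1 2 or 3. Of the targets, Sp5, a factor that Wnt induces in the streak, had 0 or 1 peak in every library.

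Of the 124 lineage and pluripotency genes, 105 had a peak, and 4 had an unadjusted exact permutation p under 0.05, all with more peaks in EpiSC_AF and none after adjustment (adjusted p = 1). Toward EpiSC_AF 0.910% of all genes did so, and 2 of the 4 are neighbours with the same counts. The median difference of the 105 was 0 peaks. Zic2 and its neighbour Zic5, zinc finger factors of the epiblast and neural plate, had the same counts, 4, 2 and 2 in EpiSC_AF, 2, 1 and 0 in EpiSC_AFX1 and 1, 0 and 1 in EpiSC_AFX2 (exact permutation p = 0.0357). Libraries of the 2 media shared a value at both genes.

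Krt18 had 7, 3 and 2 peaks in EpiSC_AF, 1, 1 and 1 in EpiSC_AFX1 and 1, 1 and 2 in EpiSC_AFX2 (exact permutation p = 0.0238), with the highest value in replicate 1. Acvr1b, the type I receptor for activin and Nodal, had 5, 5 and 5, against 5, 4 and 4 and then 4, 4 and 4 (exact permutation p = 0.0476). Acvr1b, Krt18, Eif4b, Tns2 and Calcoco1 all lie on chromosome 15, between bases 101174072 and 102722178. The 50 kb windows of Krt18 and Eif4b overlap, so these genes are not all separate finds. The differences at Zic2, Zic5, Krt18 and Acvr1b moved with list length. At 15505 peaks the exact permutation p was 0.25 for Zic2 and Zic5, 0.0833 for Krt18 and 0.107 for Acvr1b. In the lists as deposited the differences at Zic2 and Zic5 were −0.17 peaks (exact permutation p = 1), that at Krt18 1.33 (exact permutation p = 0.262) and that at Acvr1b 0.83 (exact permutation p = 0.25). In the other direction, Nanog, a pluripotency factor, had 1, 1 and 2, against 3, 3 and 4 and then 2, 2 and 2 (exact permutation p = 0.0595). Sox1, a neural plate factor, had 0 in every EpiSC_AF library, 1, 3 and 2 in EpiSC_AFX1 and 1, 1 and 0 in EpiSC_AFX2 (exact permutation p = 0.0833).

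Summed over a list, the primitive streak and mesoderm genes had 11 or 12 peaks in the EpiSC_AF libraries and 9 to 15 in the EpiSC_AFX libraries, and the endoderm genes 4 to 7 and 3 to 7. At equal length the naive pluripotency list was the only one of the 17 whose groups did not overlap. It had 5, 5 and 6 peaks in EpiSC_AF, 9, 9 and 9 in EpiSC_AFX1 and 10, 8 and 8 in EpiSC_AFX2, and none of its 14 genes had an unadjusted p under 0.05. Nanog and Tfcp2l1, a naive factor with 0, 0 and 1 against 2, 2 and 1 and then 1, 1 and 2, took the largest part of that difference. As deposited, Tfcp2l1 had 2 peaks in all 9 lists, and 8, 9 and 8 naive genes had a peak within 1 kb of an end in EpiSC_AF against 8 to 9 in EpiSC_AFX. Feeder fibroblast markers had 3, 5 and 3 peaks in EpiSC_AF and 4 to 7 in EpiSC_AFX, and their part in these sums was not tested.

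**Figure D4:**
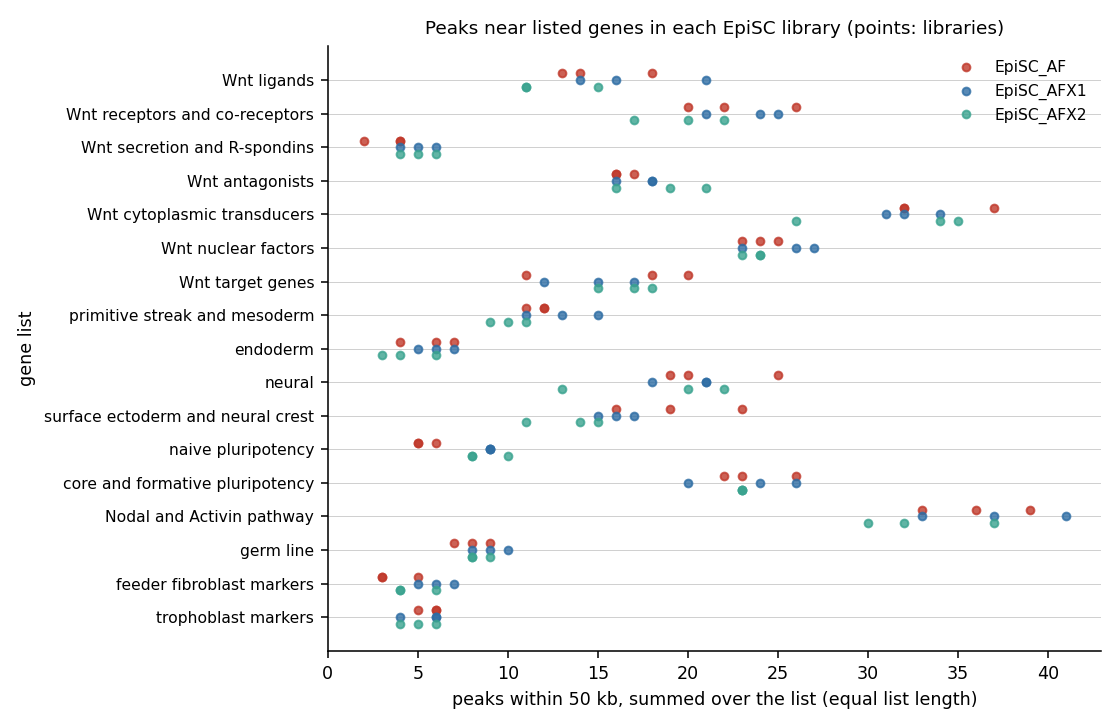
Peaks within 50 kb of the genes of each list, summed per library at equal list length (points; red, EpiSC_AF; blue, EpiSC_AFX1; green, EpiSC_AFX2). The Wnt lists overlap between the media, and the naive list stands at 5 to 6 peaks in EpiSC_AF and 8 to 10 in EpiSC_AFX.

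The result near genes moved with the length of the lists. At 15505 peaks, the longest length that all 9 lists allow and one chosen after the data were seen, 76 of 30871 regions were held by EpiSC_AF only (0.246%) and 41 by EpiSC_AFX only (0.133%). Of the 44 and 18 regions given above, 3 and 1 remained among them. Of all 21900 protein-coding genes, 123 lay within 50 kb of such an EpiSC_AF region and 99 within 50 kb of an EpiSC_AFX region. Of the 233 listed genes, 4 lay within 50 kb of an EpiSC_AF region, and none within 50 kb of an EpiSC_AFX region. Counts this small were not tested against the share over all genes. The 4 were Fzd10, 21.5 kb from chr5:128579199-128579625, Tle2, a Groucho corepressor of TCF factors, 23.0 kb from chr10:81615609-81615851, Gata4, an endoderm factor, with chr14:63255564-63256193 in its span, and Nanos3, a germ cell gene, 24.1 kb from chr8:84200690-84200889. Of these, the Tle2 and Nanos3 regions had no peak in any EpiSC_AFX1 list as deposited and had one in 2 of 3 EpiSC_AFX2 lists. None of the 4 regions had a peak in either Rd2_AFX list.

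At that length 0 of 98 Wnt genes with a peak and 3 of 123 lineage genes (2.44%) had an unadjusted exact permutation p under 0.05, against 2.02% of all 18687 genes. Foxa1, a pioneer factor of endoderm, had 2, 1 and 2 peaks in EpiSC_AF, 1, 0 and 1 in EpiSC_AFX1 and 0 in EpiSC_AFX2 (exact permutation p = 0.0357). Gsc, a gene of the anterior primitive streak, had 2, 1 and 1, against 0 and then 0, 1 and 0 (exact permutation p = 0.0357). Mesp1, an early mesoderm factor, went the other way with 0, 0 and 1, against 2, 2 and 0 and then 2, 2 and 2 (exact permutation p = 0.0476). Thy1, a feeder fibroblast marker, had 3 in every EpiSC_AF library, 4, 5 and 4 in EpiSC_AFX1 and 5 in every EpiSC_AFX2 library (exact permutation p = 0.0119).

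The lists as deposited held 15505 to 24824 peaks in EpiSC_AF and 17701 to 29575 in EpiSC_AFX. In these, 578 of 20033 genes (2.89%) had more peaks in EpiSC_AFX and 26 more in EpiSC_AF at an unadjusted exact permutation p under 0.05, and none passed after adjustment. Of the Wnt genes, 4 of 98 (4.08%) did so, all toward EpiSC_AFX. Tcf7, a TCF factor, had 0, 1 and 0 peaks in EpiSC_AF, 3, 5 and 4 in EpiSC_AFX1 and 3, 3 and 5 in EpiSC_AFX2 (exact permutation p = 0.0119). At 15505 peaks it had 0, 1 and 0, against 2, 4 and 2 and then 1, 1 and 1 (exact permutation p = 0.155). Wnt10a had 2, 3 and 2, against 4, 4 and 5 and then 4, 4 and 6 as deposited (exact permutation p = 0.0119), and 2, 3 and 2, against 3, 2 and 1 and then 2, 1 and 1 at 15505 peaks (exact permutation p = 0.381). Rnf43, which removes Frizzled receptors from the cell surface, and Cdx1, a Wnt target of the posterior body, had exact permutation p = 0.0238 as deposited. Of the lineage and pluripotency genes, 2 of 123 (1.63%) passed 0.05 unadjusted as deposited, both toward EpiSC_AFX. Dppa3 had 0 peaks in every EpiSC_AF list, 1, 2 and 3 in EpiSC_AFX1 and 1, 2 and 2 in EpiSC_AFX2 (exact permutation p = 0.0119). Sox1 had 3, 3 and 4, against 4, 5 and 5 and then 6, 5 and 5 (exact permutation p = 0.0238). At 15505 peaks Dppa3 had exact permutation p = 0.393, and the difference at Sox1 was 0 peaks.

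A peak can be present in both media and differ in rank. The 3619 regions held by all 9 lists were therefore compared by their percentile rank within each library with limma, a choice made after the results on presence were seen. None passed after adjustment. At an unadjusted p under 0.05, 89 regions (2.46%) ranked higher in EpiSC_AF and 149 (4.12%) higher in EpiSC_AFX. The smallest adjusted p was 0.0557, shared by 4 regions in which the groups did not overlap.

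The first lay 2.31 kb from Socs3, a feedback inhibitor of JAK/STAT signalling that STAT3 induces, at chr11:117963286-117963765. Its percentile ranks were 80.8, 83.4 and 71.1 in EpiSC_AF, 43.2, 33.4 and 45.3 in EpiSC_AFX1 and 49.5, 43.5 and 35.4 in EpiSC_AFX2. EpiSC_AF was higher by 36.7 percentile points (SE 4.48, limma, adjusted p = 0.0557). The lowest EpiSC_AF library stood above the highest EpiSC_AFX library at 49.5.

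The other 3 ranked higher in EpiSC_AFX. A region 64.0 kb from Efcab11 (chr12:99627742-99628240) stood at 67.0, 54.4 and 67.9 in EpiSC_AF and at 87.0 to 93.3 in EpiSC_AFX, a difference of −26.9 points (SE 3.49). A region at Kyat3, a kynurenine aminotransferase (chr3:142700830-142701271), stood at 76.1, 62.6 and 66.4 against 90.7 to 96.8, a difference of −25.3 points (SE 3.33). A region at Ctbs, a lysosomal chitobiase (chr3:146450226-146450626), stood at 49.0, 60.1 and 54.6 against 76.5 to 97.1, a difference of −34.8 points (SE 4.69). None of the 4 lay within 50 kb of a listed gene. The regions at Kyat3 and Ctbs, like the EpiSC_AFX-only regions at Bmpr1b and Erich3, lie on chromosome 3 between bases 141931390 and 154664449. Chromosome 3 held a mean of 5.42% of the kept peaks in EpiSC_AFX1, 4.78% in EpiSC_AFX2 and 4.48% in EpiSC_AF. These regions are therefore not shown to be separate finds, and the part of the chromosome was not tested.

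Of the 53 such regions near Wnt genes, 1 ranked higher in EpiSC_AF and 1 higher in EpiSC_AFX at an unadjusted limma p under 0.05. Over all 3619 regions the shares were 2.46% and 4.12%, so these counts do not set the Wnt regions apart. The median difference of the 53 was 3.12 points, against 0.70 over all 3619. The region at Tle4, a Groucho corepressor, lay at chr19:14597986-14598666. It stood at 57.6, 50.8 and 53.4 in EpiSC_AF, 75.9, 81.9 and 65.2 in EpiSC_AFX1 and 77.9, 76.8 and 68.0 in EpiSC_AFX2, a difference of −20.4 points (SE 4.17, limma, adjusted p = 0.301). Every EpiSC_AF library lay below every EpiSC_AFX library. The region near Gsk3a (chr7:25281862-25282707) differed by 11.8 points toward EpiSC_AF (limma, adjusted p = 0.583).

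Near lineage and pluripotency genes, the regions given are those with an unadjusted limma p under 0.05, as 6.58% of all 3619 had. They were 1 of 18 near Nodal and Activin genes and 1 of 10 near core and formative pluripotency genes. Another was 1 of 2 near naive genes, and another 1 of 4 near primitive streak and mesoderm genes. No region near the other lineage lists had such a p. The region at Acvr1b (chr15:101173706-101174413) stood at 88.5, 92.2 and 81.3 in EpiSC_AF, 34.1, 41.4 and 52.4 in EpiSC_AFX1 and 62.9, 71.0 and 65.9 in EpiSC_AFX2. EpiSC_AF was higher by 32.7 points (SE 8.47, limma, adjusted p = 0.448), and the 2 AFX cultures did not overlap either. A region in Slc2a3, within 50 kb of Nanog (chr6:122742425-122742760) stood at 58.8, 40.8 and 70.8, against 23.7, 13.7 and 33.9 and then 51.5, 7.9 and 23.8, a difference of 31.0 points (limma, adjusted p = 0.595). At Tcf19 and Pou5f1 (chr17:35516749-35517312) EpiSC_AF stood at 76.1, 78.6 and 77.7 against 51.6 to 72.8 in EpiSC_AFX, and was higher by 13.9 points (limma, adjusted p = 0.694). At Aldoa and Tbx6, a mesoderm factor (chr7:126799021-126799673), the difference was −15.4 points (limma, adjusted p = 0.595).

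Against a single AFX line more regions passed. With EpiSC_AFX1 alone, 19 of 4026 shared regions had an adjusted limma p under 0.05, and with EpiSC_AFX2 alone 2 of 4383 did. The rank order over the 3619 regions gave a mean Pearson r across regions of 0.591 between EpiSC_AF and EpiSC_AFX2 libraries, 0.503 between EpiSC_AF and EpiSC_AFX1 and 0.459 between EpiSC_AFX1 and EpiSC_AFX2. Within a culture it was 0.638, 0.618 and 0.656 for EpiSC_AF, EpiSC_AFX1 and EpiSC_AFX2. Regions are not independent replicates, and these values are a description.

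**Figure D5:**
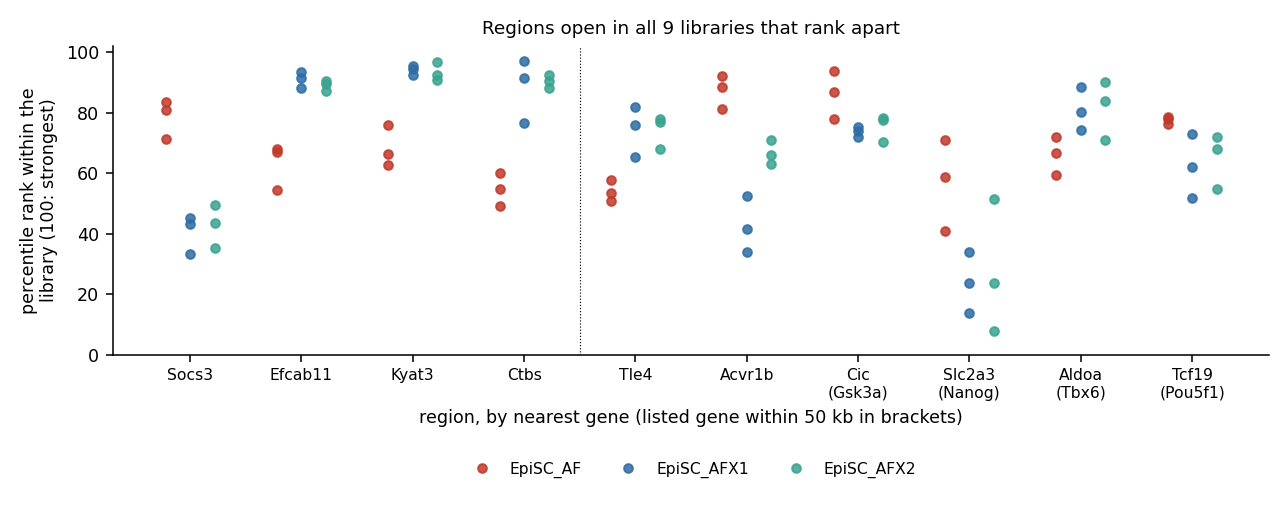
Percentile ranks (100, strongest) of 10 regions held by all 9 lists, by nearest gene, with points for libraries (red, EpiSC_AF; blue, EpiSC_AFX1; green, EpiSC_AFX2). Left of the dotted line are the 4 regions with an adjusted limma p of 0.0557, where EpiSC_AF stands apart from both AFX cultures. On the right are the regions near listed genes that had an unadjusted limma p under 0.05. Among these, EpiSC_AF stands apart at Tle4, Acvr1b and Tcf19 and overlaps at Cic, Slc2a3 and Aldoa.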

How the data were processed

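Open chromatin was profiled by ATAC-seq with Tn5 from a Nextera kit, per the labels' protocols. The submitters' processing notes name mm10, Trim Galore, Bowtie, Picard and MACS2 without roles or versions. The deposited files were broadPeak lists, 1 for each library, with peaks called by the authors in each library alone. The fold enrichment of each peak in the deposited lists is the authors' ratio, and the −log10 p and −log10 q of each peak are also the authors' values. All were used only to rank or filter peaks within a list. Depth was unknown, so peak number stood in for it, and no counting error could be given. The largest share of peaks with the same coordinates in a pair of the 9 lists was 0.0507%.

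From each list the strongest peaks by −log10 p were kept, as many as the shortest list of the first set holds. They were merged into union regions where they overlapped, and presence needed 1 bp. Genes were the 21900 protein-coding genes of the RefSeq table of GRCm38.p6, and all 233 listed symbols matched. Promoter sequences came from RefSeq on the same assembly for 17492 of these genes, with none on chromosome 18. The members and gene lists were chosen with earlier results of these data known. Named were the 10 regions of each direction with the highest mean percentile, any listed gene near a region of one medium, and the 5 genes in each direction with the largest non-overlapping difference in peak number. Others are named as chosen after their values were seen or as values of the lists.

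Libraries were the unit of every test. The exact permutation test enumerated all 84 assignments of 3 against 6 libraries, two-sided by the absolute difference of means, with a smallest p of 0.0119. Presence per region was tested with Fisher's exact test, and percentile ranks with limma. Benjamini-Hochberg adjustment ran over all regions, all genes, or the 5 library values, with a threshold of 0.05. The scripts were tested on simulated data. Alternatives were other list lengths, ranking by fold, a −log10 q minimum of 5, each AFX line alone, 50% coverage, windows of 20 and 100 kb, a replicate block and leaving out each library. Sequence content of whole peaks was not analysed here. Python 3.11.15, NumPy 2.4.6, pandas 2.3.3, SciPy 1.17.1, matplotlib 3.10.9, R 4.3.3 and limma 3.58.1 were used.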

Additional observations from a re-analysis of the deposited data

Results flagged for a closer look

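Among the 6 EpiSC_AFX libraries, EpiSC_AFX2 replicate 2 stood apart in its share of distal peaks, at 6.97%, by Dixon's criterion for a sample far from the others. Chance marks about 1 in 20 such groups for a single value, and more often somewhere among the 5 library values that were read. The 6 libraries also join 2 cultures, with 4.94% to 5.06% in EpiSC_AFX1 and 5.30% to 6.97% in EpiSC_AFX2, while the criterion takes them as 1 group. The cause was not tested.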

How the results depend on the processing

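Of 157 alternatives over 10 results, 99 kept direction, call or count within 1.5 times, 47 moved, 5 crossed to a call and 6 reversed. EpiSC_AF-only regions numbered 44, and 26 with 4000 peaks, 9 with −log10 q of at least 5, 265 against EpiSC_AFX1 alone, 171 against EpiSC_AFX2 alone, 76 at 15505 peaks and 54 to 113 without 1 library. EpiSC_AFX-only regions numbered 18, and 140 as deposited, 11, 29, 208, 177, 41 and 25 to 52 in the same order of settings. Both counts move with the number of lists that must agree. Ranking by fold gave 44 and 19 regions, of which 19 and 10 were shared with the 44 and 18. The lists as deposited shared 1 and 0, and 4000 peaks shared 0 and 0.

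Fisher's exact test adjusted over all regions called 0 in every setting, which says nothing of stability, since the smallest p that 3 against 6 lists allow (0.0119) can hardly pass over so many regions. Its count at an unadjusted p under 0.05 was 203, and 623 as deposited, 93 with 4000 peaks, 385 at 15505 peaks and 81 to 165 without 1 library. The same holds for the 0 genes called after adjustment over all genes, with unadjusted counts of 281, 604 as deposited, 146 with 4000 peaks, and 150 to 254 without 1 library, lowest without EpiSC_AFX1 replicate 1. With 3 against 3 libraries, these tests cannot reach 0.05, so they were not run for single lines.

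With 4000 peaks, the differences in Rd2_AFX regions (−0.98 points) and ES regions (3.06 points) passed (exact permutation, adjusted p = 0.0298 for both). Both stood at the smallest exact permutation p of 0.0119, and neither could pass without the other. The difference in ES regions reversed to −0.12 with −log10 q of at least 5, and that in distal peaks to −0.25 as deposited and −0.34 with −log10 q of at least 5. The difference in FS regions reversed to 0.31 at 15505 peaks, 0.19 without EpiSC_AF replicate 1 and 0.14 without EpiSC_AFX1 replicate 3. Without 1 library the differences ran from −1.35 to −0.86 (Rd2_AFX), −0.66 to 0.19 (FS), 2.79 to 3.47 (ES) and 0.28 to 0.71 points (distal), and −28.5 to −9.0 bp (width). The Rd2_AFX difference kept its sign at −3.89 as deposited, −7.13 with −log10 q of at least 5 and −0.30 by fold, the FS difference was −1.75 with 4000 peaks and −3.05 with −log10 q of at least 5, and the ES difference was 0.76 as deposited (exact permutation, adjusted p = 0.734). The 3 that passed without EpiSC_AFX2 replicate 2 are given above, and each could pass only because they shared the smallest p. The cause of these changes was not tested.

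Regions that rank apart by limma numbered 0, and 19 against EpiSC_AFX1 alone, 2 against EpiSC_AFX2 alone, 2 with 4000 peaks (Efcab11 and Kyat3) and 0 to 2 without 1 library (2 without EpiSC_AF replicate 3, 1 without EpiSC_AFX1 replicate 1 and 1 without EpiSC_AFX2 replicate 1).

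The labels share replicate numbers across cultures. Deviations of same-numbered libraries correlated at −0.051 to 0.048, those of other numbers at −0.049 to 0.064, and 2 of 9 libraries correlated best with their own number, so the numbers were not taken as pairs. With a replicate block (27 assignments, smallest p 0.037), 138 genes had an unadjusted p under 0.05 and none passed after adjustment. Under the block the adjusted exact permutation p was 0.185 for Rd2_AFX and for ES regions, 0.889 for FS regions, 0.432 for width and 0.602 for distal peaks, and limma called 0 regions, so no call changed. Unknown depth limits every count here, since a region below a list's end is not shown to be closed.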
